A study of Homo sapiens with 6 samples.

Results

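The AP-1 family of transcription factors was followed here in SK-MEL-28, an established human melanoma cell line, through 10 genes that were taken by name: JUN, JUNB, JUND, FOS, FOSB, FOSL1, FOSL2, ATF2, ATF3 and BATF3. All 10 had a row among the 60504 genes of the count table, and all 10 were among the 16195 genes with enough counts to be tested. The study asked how forced expression of HDAC8, a class I histone deacetylase encoded on the X chromosome, changes melanoma cells. Total RNA was sequenced from 3 libraries labelled EV, in which cells carried an empty-vector plasmid and which the labels give as the control genotype, and from 3 libraries labelled HDAC8, in which cells carried the HDAC8 plasmid. According to the study's methods, plasmids went in by lipid transfection and cells of both groups were kept under hygromycin. Whether each group is a pool or a clone is not given in the sources used here. The labels number the libraries as biological replicates without saying whether they came from separate cultures, so the p-values measure the spread between these libraries, which may be technical.

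AP-1 is a dimer. Its subunits belong to the basic leucine zipper (bZIP) proteins, which pair through a leucine zipper and grip DNA with a basic region. JUN proteins can pair with themselves or with FOS proteins, whereas FOS proteins need a JUN partner, and ATF and BATF proteins join the same network. The classical dimer reads the TPA response element, TGACTCA, and dimers that contain ATF subunits favour the cyclic AMP response element, TGACGTCA. JUN and ATF2 are activated by phosphorylation through the JUN N-terminal kinases (JNK), a step that transcript counts do not measure. In melanoma, JUN and FOSL1 are known from dedifferentiated and invasive cell states, and FOS, FOSB, JUNB and ATF3 are immediate early genes that mitogens and stress switch on within minutes.

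Of the 10 AP-1 genes, FOSL1 stood lower and JUND slightly higher in the libraries labelled HDAC8, and the other 8 did not pass the test. The JUND call was kept in 3 of 12 alternative analyses, and the FOSL1 call in all 12. FOSL1 averaged 17.4 ± 2.15 CPM (counts per 1000000 counts of the library after TMM scaling, mean ± SD, n = 3) in the EV libraries and 9.59 ± 1.55 CPM (n = 3) in the HDAC8 libraries. JUND averaged 27.9 ± 0.959 CPM and 32.8 ± 2.22 CPM. JUN, the namesake subunit, averaged 5.22 ± 0.832 CPM and 3.87 ± 0.711 CPM and its groups overlapped. These are bulk cultures, in which fewer cells expressing a gene and less RNA per cell cannot be told apart.

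The groups did not separate at the targeted gene, HDAC8 (ENSG00000147099, chromosome X, 72329516 to 72573101 in GRCh38). Its counts were 357, 337 and 289 in the EV libraries and 417, 308 and 312 in the libraries labelled HDAC8, with a log2 fold change of -0.024 (SE 0.13) and an adjusted p of 0.924 in edgeR (quasi-likelihood test, p-values adjusted by the Benjamini-Hochberg method). The group names are therefore the labels of the libraries, and every direction below is that of the libraries labelled HDAC8 against the libraries labelled EV. Library totals ran from 20850018 to 29822917 counts, so that the limit that a count of 0 allows, 3 counts, corresponds to 0.102 to 0.148 CPM. Melanocytic markers were all present, with a summed level of 6460 to 6851 CPM in the EV libraries and 7480 to 8003 CPM in the HDAC8 libraries for 8 genes. That sum was carried by PMEL, and the markers did not move together, with 4 higher and 3 lower at an adjusted p below 0.05 in edgeR and DCT lower, from 233 to 68.2 CPM on average. The 14 markers of other cell types summed to 68.8 to 69.5 CPM and 81.2 to 86.7 CPM. LUM (36.7 and 49.6 CPM on average) and CD68 carried most of this. CD3E was at 0 in every library, and PTPRC, EPCAM, KRT5 and CDH5 had at most 1 count in any. The remaining markers had more than 1 count in some library. Of these, CD79A had 15, 9 and 28 counts in the EV libraries and 177, 24 and 21 in the HDAC8 libraries, with HDAC8 replicate 1 standing apart. The part of these marker shifts in the AP-1 results was not tested.

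Over all tested genes, 11.1% were higher and 11.7% lower at an adjusted p below 0.05, and 4.07% and 3.45% passed a log2 fold change of 0.58 as well, the fold threshold of the study's methods. Among the AP-1 genes, 1 of 10 was higher (JUND) and 1 of 10 lower (FOSL1) at the adjusted p, which is near the background in either direction. With the fold threshold, 1 of 10 was lower (FOSL1) and 0 were higher in edgeR, with 0 higher also at an unadjusted p in edgeR and in DESeq2. At an unadjusted p below 0.05 without the fold threshold, edgeR counted 2 higher and 2 lower members, and DESeq2, an alternative count test, called 0 higher and 1 lower at its adjusted p. The groups did not overlap in 2 members that were higher (JUND and FOSB) and 2 that were lower (FOSL1 and BATF3), beside 18.6% and 19.4% of all tested genes, again near the background. The median log2 fold change was 0.076 over the members and 0.0091 over all tested genes, with 6 members positive and 4 negative.

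**Figure D1:**
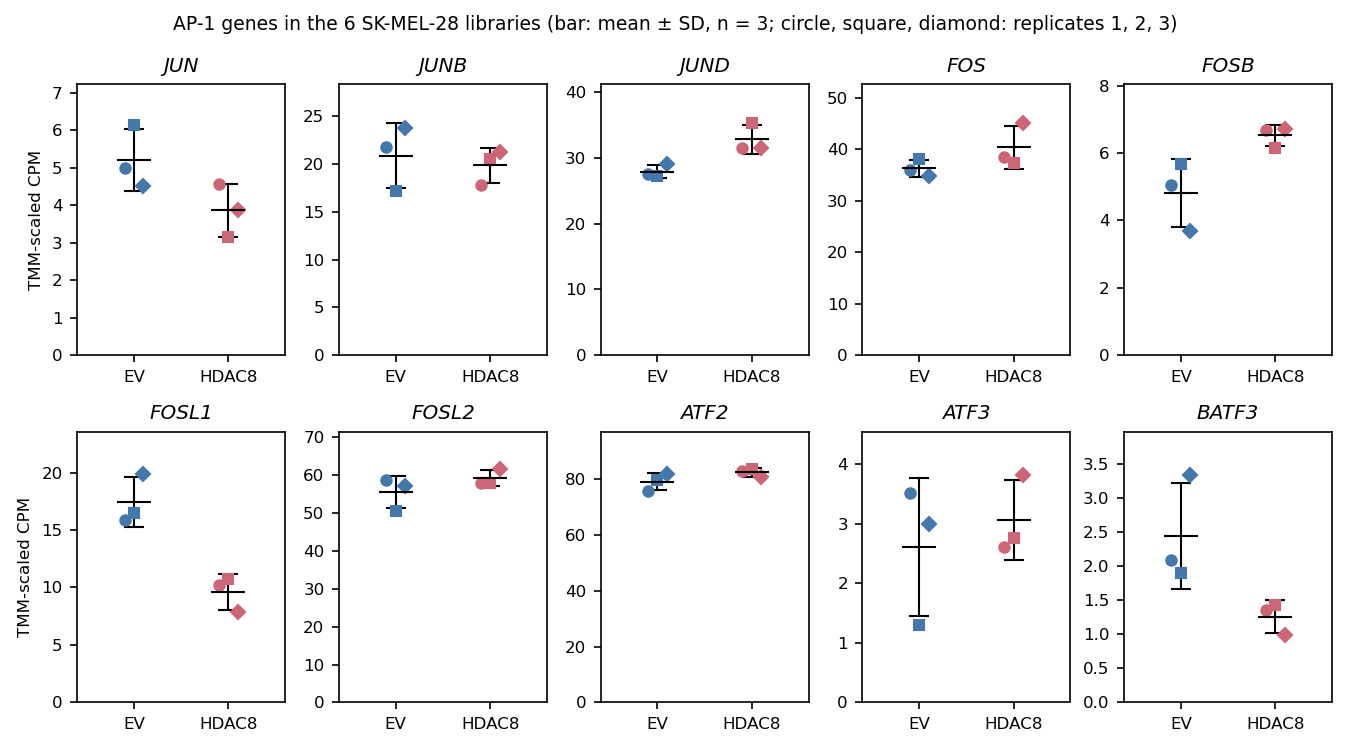
Level of each AP-1 gene in TMM-scaled CPM on axes that start at 0, with 1 point per library and a bar at the mean ± SD of each group of 3. The EV and HDAC8 points are apart for JUND, FOSB, FOSL1 and BATF3 and overlap for the other 6 genes.

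The JUN genes encode the subunits that can form AP-1 on their own. JUN (ENSG00000177606, chromosome 1, 58776845 to 58784048, reverse strand), the strongest activator of the group, had 5.01, 6.13 and 4.51 CPM in the EV libraries and 4.58, 3.15 and 3.87 CPM in the HDAC8 libraries. The highest HDAC8 library lay just above the lowest EV library, so the groups overlapped. The log2 fold change was -0.42 (SE 0.21, adjusted p = 0.193, edgeR), and it kept its sign under all 12 alternatives, from -0.57 to -0.29, without passing the test in any. With 64 to 136 counts per library, JUN was among the less deeply counted members.

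JUND (ENSG00000130522, chromosome 19, 18279694 to 18281622, reverse strand), the broadly expressed subunit that is often abundant in resting cells, had 27.5, 27.2 and 29.0 CPM in the EV libraries and 31.5, 35.3 and 31.5 CPM in the HDAC8 libraries. Every HDAC8 library was above every EV library, by a 1.17-fold difference of the fitted levels. The log2 fold change was 0.23 (SE 0.076, adjusted p = 0.0486, edgeR), close to the threshold. The sign held under all 12 alternatives, but the adjusted p stayed below 0.05 in 3 of them, was 0.0778 in DESeq2, and lay between 0.0571 and 0.197 when any library other than HDAC8 replicate 3 was left out.

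JUNB (ENSG00000171223, chromosome 19, 12791486 to 12793315, forward strand), an inducible subunit that can restrain JUN, had 21.8, 17.1 and 23.7 CPM in the EV libraries and 17.8, 20.5 and 21.3 CPM in the HDAC8 libraries. All HDAC8 values fell within the EV range. Its log2 fold change of -0.077 (SE 0.12, adjusted p = 0.715, edgeR) turned to 0.027 without EV replicate 3. JUNB and JUND lie on the same chromosome, 5490 kb apart.

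Among the FOS genes, which encode the obligate partners, FOSL1 (ENSG00000175592, chromosome 11, 65892049 to 65900573, reverse strand) showed the difference. FOSL1 encodes FRA-1, a FOS protein without the strong activation domain of FOS that is stabilised by ERK signalling. Its counts were 342, 366 and 489 in the EV libraries and 301, 218 and 182 in the HDAC8 libraries, or 15.9, 16.5 and 19.9 CPM and 10.2, 10.7 and 7.83 CPM. Every HDAC8 library was below every EV library. FOSL1 was 1.82-fold lower, with a log2 fold change of -0.86 (SE 0.14, adjusted p = 0.000821, edgeR). It passed the test under all 12 alternatives, with log2 fold changes from -0.95 to -0.74 and adjusted p from 1.11e-09 to 0.00741.

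FOSL2 (ENSG00000075426, chromosome 2, 28392448 to 28417317, forward strand), which encodes the close paralogue FRA-2, did not pass the test. It had 58.7, 50.7 and 57.2 CPM in the EV libraries and 58.1, 57.9 and 61.6 CPM in the HDAC8 libraries. The groups overlapped, and the log2 fold change was 0.093 (SE 0.068, adjusted p = 0.379, edgeR). The ratio of FOSL1 to FOSL2 counts within a library, which does not depend on library scaling, ran from 0.270 to 0.348 in the EV libraries and from 0.127 to 0.186 in the HDAC8 libraries.

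FOS (ENSG00000170345, chromosome 14, 75278826 to 75282230, forward strand), the prototype immediate early partner of JUN, had 35.9, 38.2 and 34.8 CPM in the EV libraries and 38.5, 37.5 and 45.2 CPM in the HDAC8 libraries. HDAC8 replicate 3 was the highest and the remaining libraries were close together. The log2 fold change was 0.15 (SE 0.083, adjusted p = 0.221, edgeR). FOSB (ENSG00000125740, chromosome 19, 45467995 to 45475179, forward strand), whose product is induced alongside FOS, had 5.05, 5.68 and 3.70 CPM in the EV libraries and 6.68, 6.16 and 6.71 CPM in the HDAC8 libraries. The groups did not overlap, and EV replicate 3 was the lowest library. With 91 to 197 counts per library, its log2 fold change of 0.44 (SE 0.19, adjusted p = 0.129, edgeR) did not pass the test, here or under any of the 12 alternatives.

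ATF2 (ENSG00000115966, chromosome 2, 175072250 to 175168382, reverse strand), a JNK substrate and JUN partner, varied little between libraries. It averaged 79.2 ± 3.04 CPM in the EV libraries and 82.5 ± 1.52 CPM in the HDAC8 libraries, with overlapping groups and a log2 fold change of 0.059 (SE 0.054, adjusted p = 0.494, edgeR). ATF3 (ENSG00000162772, chromosome 1, 212565334 to 212620777, forward strand), a stress-induced repressor when it pairs with itself, spread most within either group. It had 3.52, 1.31 and 3.01 CPM in the EV libraries and 2.61, 2.76 and 3.83 CPM in the HDAC8 libraries, so that the groups overlapped widely around a low EV replicate 2. The log2 fold change of 0.23 (SE 0.35, adjusted p = 0.702, edgeR) became -0.090 without that library.

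BATF3 (ENSG00000123685, chromosome 1, 212686417 to 212699840, reverse strand) encodes a small bZIP protein that pairs with JUN proteins and is best known from dendritic cells. It had 45, 42 and 82 counts in the EV libraries and 40, 29 and 23 in the HDAC8 libraries, or 2.09, 1.89 and 3.33 CPM and 1.36, 1.43 and 0.990 CPM. The HDAC8 libraries were all below the EV libraries, of which replicate 3 stood highest. The log2 fold change was -0.95 (SE 0.34, adjusted p = 0.0648, edgeR). It was -0.66 with an adjusted p of 0.285 without EV replicate 3, and it passed the test in 1 of 12 alternatives, the filter of at least 10 counts in every library (adjusted p = 0.0393). BATF3 and ATF3 start 135 kb apart on chromosome 1.

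**Figure D2:**
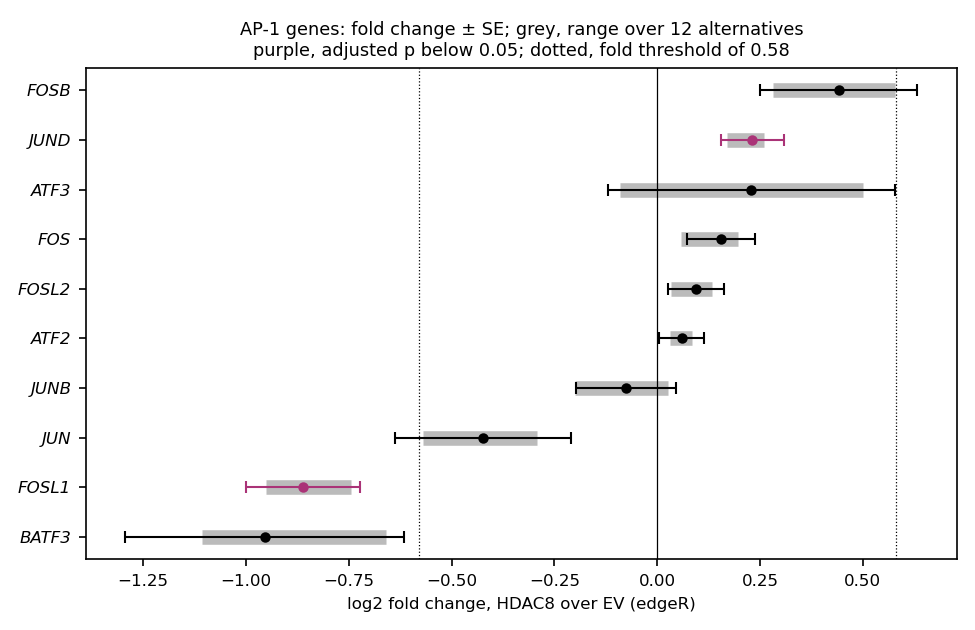
Log2 fold change of each AP-1 gene, HDAC8 over EV libraries, as points (purple where the adjusted p was below 0.05). Bars are 1 SE derived from the edgeR test statistic, and a grey band gives the range over the 12 alternative analyses. FOSL1 lies at -0.86 with its band between -0.95 and -0.74, while the bands of JUNB and ATF3 reach both sides of 0, and dotted lines mark 0.58 in either direction.

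Levels of different members can be set side by side only per length, and they were expressed as mean CPM per kilobase of merged annotated exons over the 6 libraries. JUND (15.7), ATF2 (14.1), FOS (12.0) and JUNB (11.1) formed the upper end, and each overlapped its neighbour in the order. FOSL2 (8.01) followed below the range of JUNB, and FOSL1 (7.16) overlapped FOSL2. Within the groups these changed places, with FOSL1 at 9.23 ± 1.14 and FOSL2 at 7.75 ± 0.591 in the EV libraries, and at 5.08 ± 0.821 and 8.27 ± 0.293 in the HDAC8 libraries. JUN (1.25) was well below, without overlap with FOSL1, followed by FOSB (1.02), BATF3 (0.719) and ATF3 (0.710). In the EV libraries JUN averaged 1.44 against 0.867 for FOSB, and in the HDAC8 libraries 1.07 against 1.17. BATF3 averaged 0.949 against 0.654 for ATF3 in the EV libraries and 0.490 against 0.767 in the HDAC8 libraries. With the longest transcript as the length, BATF3 was below ATF3 in both groups (1.03 against 1.24 and 0.534 against 1.46). The highest and the lowest member were 22.1-fold apart. The order depends on the length used, since 7 of the 10 ranks changed with the longest transcript as the length, with ATF2 then first.

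The members' share of all AP-1 transcripts was then described on the same scale, as the percentage of the summed CPM per kilobase of the 10 genes, with no test. The sum itself was 71.9 ± 3.43 in the EV libraries and 71.7 ± 1.74 in the HDAC8 libraries, a difference well within the spread. FOSL1 made up 12.8 ± 1.07% of it in the EV libraries and between 5.72% and 7.82% in the HDAC8 libraries. JUND made up 20.1 ± 0.297% and 23.7 ± 1.34%, and JUN 2.01 ± 0.411% and 1.49 ± 0.308%. By class, the JUN genes held 37.9 ± 1.26% and 40.3 ± 1.33%, the FOS genes 40.7 ± 1.05% and 37.9 ± 1.18%, and the ATF and BATF genes 21.4 ± 0.402% and 21.8 ± 0.629%. Within libraries, the ratio of JUN to JUND counts ran from 0.156 to 0.226 in the EV group and from 0.0893 to 0.145 in the HDAC8 group, and that of FOSL1 to JUND counts from 0.576 to 0.686 and from 0.248 to 0.324. Neither ratio overlapped between the groups, but JUND, the divisor, was itself higher in the HDAC8 libraries, and JUN alone overlapped. How often ratios of other genes separate was not examined. Among single tested genes, 18.6% lay apart as higher and 19.4% as lower.

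**Figure D3:**
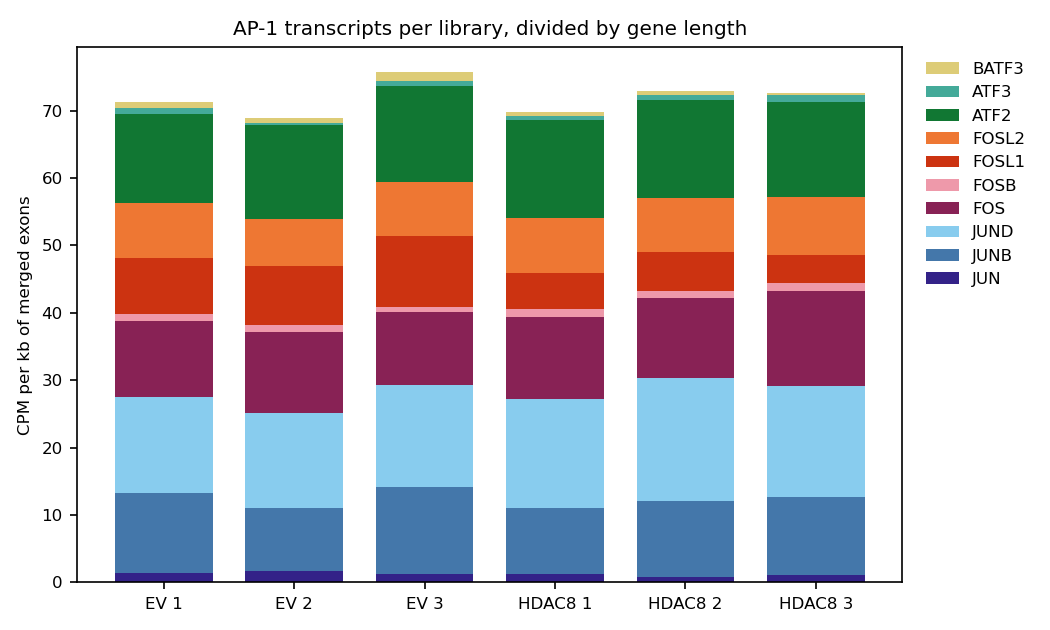
Summed level of the 10 AP-1 genes in CPM per kilobase of merged exons in each of the 6 libraries, stacked by gene. The stacks reach similar heights, from 68.9 to 75.6 in the EV libraries and from 69.7 to 72.8 in the HDAC8 libraries, and the FOSL1 layer is thinner in the HDAC8 libraries.

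Several AP-1 genes carry AP-1 or related elements close to their own start sites, and the promoter windows below show those found here. RefSeq promoter sequences (GRCh38.p14, 250 bases before to 50 after a transcription start) were at hand for 7 members in 8 windows, and not for FOSL1, ATF2 and BATF3. TGACTCA and TGACGTCA were searched on both strands, and so was TGACATCA, the variant site for which the JUN promoter is known, which was added after the windows had been seen. None of the 3 motifs holds another. They occur in 4.95%, 1.85% and 2.61% of 35116 promoters, and at least 1 of them in 9.15%. Of the 8 windows, TGACTCA and TGACGTCA each matched in 1, and TGACATCA, added later, in 2. The resulting 4 is thus no planned count to set beside 9.15%. These 4 windows were JUN (TGACATCA, 67 bases before the start), ATF3 (TGACATCA, 123 before), JUND (TGACGTCA, 200 before) and FOSL2 (TGACTCA, base 5 of the transcript). Each is printed 5′ to 3′ on the gene's strand with the match in capitals, JUN at chr1:58783998-58784297 (reverse), JUND at chr19:18281573-18281872 (reverse), FOSL2 at chr2:28392608-28392907 (forward) and ATF3 at chr1:212565157-212565456 (forward).
JUN: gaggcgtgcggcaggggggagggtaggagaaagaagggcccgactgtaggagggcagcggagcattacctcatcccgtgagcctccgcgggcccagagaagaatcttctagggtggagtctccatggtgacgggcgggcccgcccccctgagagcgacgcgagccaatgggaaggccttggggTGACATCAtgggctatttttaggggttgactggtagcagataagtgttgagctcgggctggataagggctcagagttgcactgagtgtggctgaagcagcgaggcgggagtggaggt
JUND: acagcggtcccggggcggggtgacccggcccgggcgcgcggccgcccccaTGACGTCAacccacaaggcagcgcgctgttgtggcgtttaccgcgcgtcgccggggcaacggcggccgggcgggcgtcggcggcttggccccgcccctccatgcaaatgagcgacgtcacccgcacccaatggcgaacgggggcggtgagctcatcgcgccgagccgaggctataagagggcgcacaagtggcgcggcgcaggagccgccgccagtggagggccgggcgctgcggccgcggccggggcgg
FOSL2: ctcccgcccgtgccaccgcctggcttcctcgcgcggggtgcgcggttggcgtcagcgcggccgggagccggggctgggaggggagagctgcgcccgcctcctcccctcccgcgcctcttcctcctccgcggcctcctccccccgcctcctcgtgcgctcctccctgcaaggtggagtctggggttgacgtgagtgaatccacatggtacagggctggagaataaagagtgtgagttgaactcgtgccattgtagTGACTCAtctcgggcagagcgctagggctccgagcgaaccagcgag
ATF3: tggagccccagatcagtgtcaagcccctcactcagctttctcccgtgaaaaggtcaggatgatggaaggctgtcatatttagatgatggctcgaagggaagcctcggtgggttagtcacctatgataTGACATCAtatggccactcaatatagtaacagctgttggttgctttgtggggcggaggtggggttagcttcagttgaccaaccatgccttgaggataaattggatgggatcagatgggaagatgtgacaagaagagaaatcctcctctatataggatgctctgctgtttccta
Of these 4 genes, JUND alone passed the test, a call that it kept in 3 of 12 alternatives. The windows of JUNB, FOS, FOSB and the second start of ATF3 held none of the 3 motifs, and a match is a description of the letters, not a bound site.

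Genes around AP-1 were examined through 8 lists, 101 genes in all, of which 88 were tested. At an adjusted p below 0.05, 8 were higher and 18 lower, which is 9.09% and 20.5% of them beside 11.1% and 11.7% of all tested genes. With the fold threshold 2 were higher and 5 lower, or 2.27% and 5.68% beside 4.07% and 3.45%, and the median log2 fold change was -0.088. Of the 26 genes called at the adjusted p, 22 kept the call under every alternative analysis that gave them a value, which for CXCL8 was 11 of the 12. The other 4 lost it when certain libraries were left out. These were DUSP1 without EV replicate 1 or 3, KLF10 without EV replicate 2 or HDAC8 replicate 1, MAP3K11 without EV replicate 1 or 3 or HDAC8 replicate 1, and MAP3K20 under the replicate block and without any library other than HDAC8 replicate 1. The highest adjusted p of each was 0.0758, 0.0848, 0.105 and 0.135. Genes named below that passed the adjusted p without the fold threshold were named after their values had been seen. So were ELK3, JDP2 and MMP9, and the markers LUM, CD68, CD79A, PMEL and DCT.

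The bZIP relatives, which can pair with or compete against AP-1 subunits, had 10 tested members of 12, with 2 higher (20%, beside 11.1% of all tested genes) and a median log2 fold change of -0.15. MAF, a large MAF factor, was higher (log2 fold change 0.32, adjusted p = 0.0100). CREB5, a relative of ATF2 that binds the cyclic AMP response element, rose from 266 to 349.7 CPM (log2 fold change 0.39, adjusted p = 5.03e-05). JDP2, a repressor of AP-1 that starts 149 kb from FOS on chromosome 14, had a log2 fold change of -0.57 (adjusted p = 0.211).

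Upstream of AP-1, the JNK cascade had 20 tested genes of 21, with 1 higher (5% beside 11.1% of all tested genes), 4 lower (20% beside 11.7%) and a median of -0.057. The kinases MAPK8 and MAPK9, which encode JNK1 and JNK2, had log2 fold changes of 0.17 (adjusted p = 0.232) and 0.18 (adjusted p = 0.159). MAP3K4 was higher (log2 fold change 0.37, adjusted p = 0.0112), whereas the upstream kinases MAP3K12 (-0.35, adjusted p = 0.00114), MINK1 (-0.26, adjusted p = 0.00850), MAP3K11 (-0.19, adjusted p = 0.0250) and MAP3K20 (-0.19, adjusted p = 0.0446) were lower, none past the fold threshold. The dual-specificity phosphatase genes listed with the JNK pathway had 4 tested members of 5, with 0 higher and 2 lower (50%, beside 11.7% of all tested genes). The lower ones were DUSP1 (log2 fold change -0.42, adjusted p = 0.0141) and DUSP10 (-0.28, adjusted p = 0.00330). Of the 6 genes of the ubiquitin ligases that turn JUN over, 1 was higher and 1 lower (16.7% each, beside 11.1% and 11.7% of all tested genes). CUL4A, a cullin scaffold, was lower (log2 fold change -0.40, adjusted p = 0.000378) and its adaptor DDB1 higher (0.20, adjusted p = 0.00840).

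The coactivator EP300, an acetyltransferase that AP-1 recruits, averaged 357 ± 7.98 CPM in the EV libraries and 355 ± 16.5 CPM in the HDAC8 libraries (log2 fold change -0.010, SE 0.047, adjusted p = 0.909, edgeR). Its paralogue CREBBP had a log2 fold change of 0.085 (adjusted p = 0.284). The 6 SRF and TCF factors regulate FOS transcription. None of the 4 coactivators or these 6 factors passed the adjusted p in edgeR or in DESeq2, with medians of 0.021 and 0.017. At an unadjusted p below 0.05, both tools counted 0 of the coactivators and 1 of the SRF and TCF factors (ELK3 in edgeR).

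The immediate early genes, which share the rapid induction of FOS, FOSB and JUNB, had 20 tested members of 21, with 3 higher, 3 lower (15% each, beside 11.1% and 11.7% of all tested genes) and a median of -0.077. NR4A1, an orphan nuclear receptor, was at 66.5 ± 2.59 CPM in the EV libraries and 458 ± 22.4 CPM in the HDAC8 libraries, a 6.88-fold difference (log2 fold change 2.78, adjusted p = 4.64e-11, edgeR). Its paralogue NR4A2 was lower (log2 fold change -0.54, adjusted p = 0.00594). IER3 (0.50, adjusted p = 9.35e-06) and KLF10 (0.39, adjusted p = 0.0257) were higher, and the zinc-finger gene EGR2 (-1.08, adjusted p = 0.00528) and IER5 (-0.42, adjusted p = 0.00672) were lower. EGR1, usually induced together with FOS, averaged 29.1 and 28.2 CPM (log2 fold change -0.049, adjusted p = 0.736).

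The list of AP-1 target genes had 18 tested members of 26, with 1 higher and 7 lower at the adjusted p, or 5.56% and 38.9% beside 11.1% and 11.7% of all tested genes. With the fold threshold 1 was higher and 3 lower, or 5.56% and 16.7% beside 4.07% and 3.45%, and the median log2 fold change was -0.33 against 0.0091 over all tested genes. The list was drawn up with earlier results of these data known, so its direction is no independent evidence. FN1, which encodes fibronectin, averaged 7475 ± 93.4 CPM in the EV libraries and 2857 ± 42.8 CPM in the HDAC8 libraries (log2 fold change -1.39, SE 0.032, adjusted p = 1.41e-10, edgeR). CDKN1A, the p21 cell cycle inhibitor, averaged 22.2 ± 2.02 and 9.99 ± 1.96 CPM (log2 fold change -1.14, adjusted p = 8.71e-05). CXCL8, a chemokine gene with a promoter AP-1 site, had 20, 11 and 14 counts in the EV libraries and 4, 1 and 2 in the HDAC8 libraries (log2 fold change -2.74, SE 0.63, adjusted p = 0.00815).

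In the other direction, PLAUR, the urokinase receptor, averaged 13.8 ± 1.47 CPM in the EV libraries and 25.0 ± 0.668 CPM in the HDAC8 libraries (log2 fold change 0.86, SE 0.096, adjusted p = 5.31e-05, edgeR). CCND1 (-0.40), CD44 (-0.36), BCL2L11 (-0.35) and VIM (-0.32) were lower at the adjusted p and short of the fold threshold. The invasive-state receptor AXL had a log2 fold change of -0.83 with an adjusted p of 0.0546 in edgeR, and it passed the test in 5 of 12 alternatives, among them DESeq2 (adjusted p = 0.0326), with adjusted p from 0.0310 to 0.234 over the 12. The protease gene MMP9 was too low to be tested. It had 10, 5 and 7 counts in the EV libraries and 0 in each HDAC8 library. Against a floor of 3 counts over the group, it was at least 7.84-fold lower if the EV counts are taken as exact. MITF, the melanocyte lineage factor often set opposite JUN in melanoma, was lower (log2 fold change -0.14, adjusted p = 0.0263, edgeR). It lost the call with the replicate number as a block (adjusted p = 0.0824), without EV replicate 1 (0.0916) and without EV replicate 3 (0.121).

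**Figure D4:**
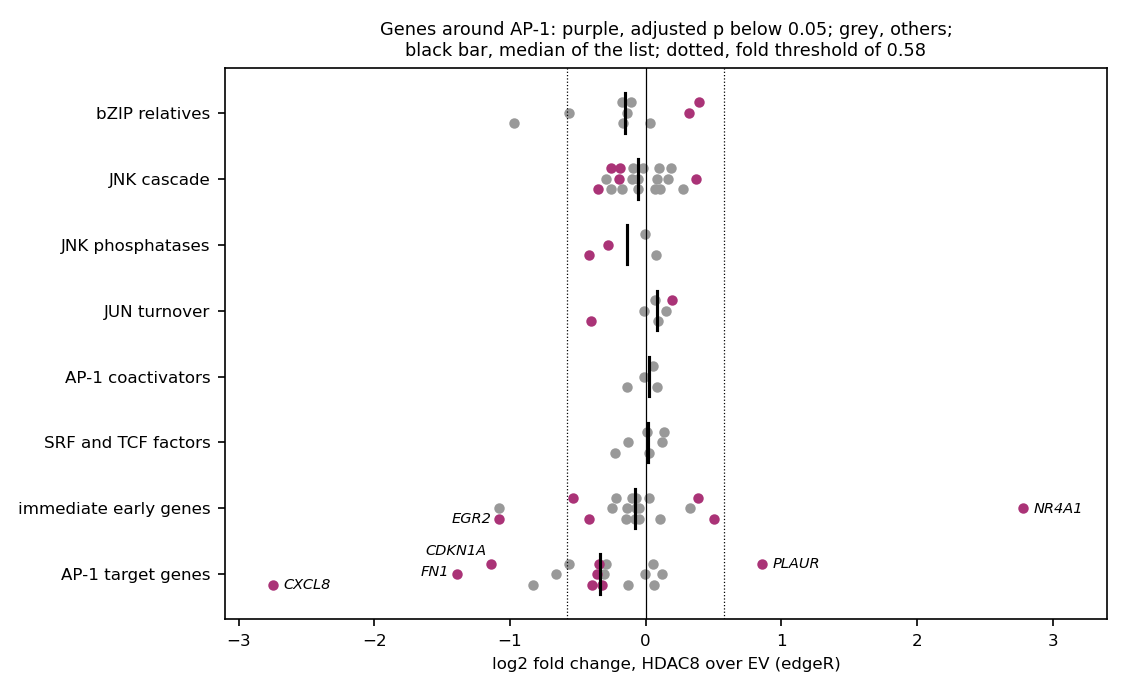
Log2 fold change, HDAC8 over EV libraries, of the tested genes in the 8 lists around AP-1, with 1 point per gene (1 gene is not shown), purple where the adjusted p was below 0.05, and a black bar at each median. Plotted genes past both thresholds are named, and the median of the AP-1 target genes lies at -0.33 while those of the other lists lie between -0.15 and 0.082.

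Across the 6 libraries, the pattern of JUN, compared over 14146 genes by the root mean square difference of centred log2(CPM + 0.5), was most like that of IL1R1 (0.0477), TOR2A (0.0620), PXK (0.0664), AL157838.1 (0.0690) and COX19 (0.0742). The pattern of FOSL1 was most like that of RAB3IL1 (0.0605), PALD1 (0.0838), KLF5 (0.0935), BCL2A1 (0.0953) and SLC26A4 (0.0998). These are ranks of likeness over 6 points that share the 2 groups.

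The nearest tested gene on either side of each of the 10 members was examined. PLB1 and CHN1 alone passed the adjusted p, both higher, beside 11.1% of all tested genes that were higher. The genes next to FOSL1 on chromosome 11 did not pass the test. CCDC85B, 9.90 kb away, had a log2 fold change of -0.25 (adjusted p = 0.0993), and C11orf68, 18.5 kb away on the other side, had one of 0.10 (adjusted p = 0.537). The opposite arrangement was seen at FOSL2, whose neighbour PLB1, a phospholipase gene that starts 64.7 kb away, rose from 2.38 to 15.0 CPM (log2 fold change 2.66, SE 0.24, adjusted p = 7.93e-06, edgeR) beside a FOSL2 change of 0.093. Next to ATF2, CHN1, 163 kb away, had a log2 fold change of 0.29 (adjusted p = 0.0251, edgeR). It lost the call in 5 of 12 alternatives, with no filter on low counts (adjusted p = 0.0529) and without any one of the EV libraries or HDAC8 replicate 3 (0.0598 to 0.0935).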

How the data were processed

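Total RNA of 6 SK-MEL-28 libraries was sequenced. Per the study's methods, the authors trimmed reads with Trimmomatic, aligned them with STAR and estimated gene abundance with RSEM, and the submitters' processing notes give GRCh38. The annotation is not given in the sources used here. The labels and the methods name different RNA and library kits, a point that could not be settled. The deposited values are expected counts per gene, unnormalized and not always whole, and they were rounded before testing. A second deposited table holds the authors' own fold changes and p-values and was not used.

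Genes were filtered with filterByExpr, scaled by TMM and tested with edgeR 4.0.16 (quasi-likelihood, HDAC8 over EV, no covariate, R 4.3.3) over all 16195 tested genes, with Benjamini-Hochberg adjustment. Thresholds were an adjusted p of 0.05 and, where stated, an absolute log2 fold change of 0.58. DESeq2 1.42.0, other scalings and filters, the replicate number as a block and omission of each library were the alternatives. The fit was also run on counts simulated with its own dispersion estimates, which cannot check those estimates or the results for the members. Coordinates and exon lengths came from GENCODE 44, in which 16010 of the tested identifiers and all 10 members were found. Library totals were 20850018 to 29822917, and floors of 3 counts cover counting error only.

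The AP-1 genes and all lists were chosen with earlier results of these data known. Named genes were the 10 members, list genes past both thresholds (at most 4 per list, by adjusted p), EP300, CREBBP, MAPK8, MAPK9, EGR1, AXL and MITF whatever their result, the 5 genes with at least 1 CPM most like JUN and FOSL1, and the nearest tested neighbours of members, of which those of FOSL1, those past the test and JDP2 are printed. The result of 1 list gene is not reported here, though the counts and medians of its list include it.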

Additional observations from a re-analysis of the deposited data

How the results depend on the processing

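FOSL1 kept its direction and its call under all 12 alternatives, and JUND its direction. The count of AP-1 genes past both thresholds was 1 higher with no fold threshold, and for lower genes 2 when every library had to hold 10 counts, 0 with a threshold of 1 on the log2 scale and 2 at an unadjusted p. In the lists, higher genes were 8 without the fold threshold and 1 at the stricter one, and lower genes were 18 without it and 8 at an unadjusted p. With the longest transcript as length, the JUN genes held 32.0% (EV) and 33.7% (HDAC8) of the summed level, the FOS genes 43.2% and 41.0%, and the ATF and BATF genes 24.8% and 25.3%. With no division by length these were 21.4% and 21.8%, 45.2% and 44.7%, and 33.4% and 33.5%. Leaving out 1 library moved the log2 fold change of EP300 between -0.043 and 0.019 (0.0064 without EV replicate 3), of the HDAC8 gene between -0.16 and 0.082, of ATF3 between -0.090 and 0.50 and of JUNB between -0.20 and 0.027. The cause was not tested. Same-numbered libraries did not deviate together (correlations of -0.0729, -0.0867 and 0.0079 over 9776 genes). The labels do not say whether the numbers pair libraries, and these correlations cannot decide it. With the replicate block, FOSL1 was at -0.86 (adjusted p = 0.00385) and JUND lost its call (adjusted p = 0.0909). JUN, FOSB, ATF3 and BATF3 had under 200 counts per library.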
